A study of Homo sapiens with 20 samples.

Results

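Cells of LNCaP, an established line from a human prostate cancer that responds to androgens, were held in late G1 with roscovitine and set against the same cells held at 4 other points of the cell cycle. The late G1 group was made of the 3 arrays so titled, of 20 in the series, and was compared with the equally weighted mean of the other arrests, which held 11 arrays, so that 14 arrays entered the comparison. Late G1 cells had roscovitine at 5 µg/mL for 24 h (n = 3). The early G1 group was treated for 24 h with 0.5 µM PD-0332991, which inhibits CDK4 and CDK6 (n = 3). The early S group received 2 µg/mL aphidicolin, which blocks replicative DNA polymerases, over the same 24 h (n = 2). The late S group received 1 mM hydroxyurea, which blocks ribonucleotide reductase, also over 24 h (n = 3). The G2/M group was first treated for 15 h with 2 µg/mL aphidicolin and, once that was washed out, for 9 h with 50 ng/mL nocodazole, which depolymerises microtubules (n = 3). All 5 arrests were in hormone-proficient medium and had 10 nM dihydrotestosterone (DHT), a potent androgen, over the last 3 h. Of the 6 arrays outside the comparison, the CDT+DHT group spent 72 h in the medium named CDT in the labels before 10 nM DHT was added for 3 h (n = 3), and the CDT group received ethanol for 3 h instead (n = 3). The phase names are those of the labels, no measure of DNA content was used here, and each phase goes with its own drug, so phase and drug cannot be told apart. RNA was amplified from whole cultures, so that fewer cells in a state and less RNA per cell cannot be told apart either.

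Passage from G1 into S phase is driven by cyclin-dependent kinases (CDKs). CDK4 and CDK6 with D-type cyclins and then CDK2 with cyclin E phosphorylate the retinoblastoma proteins, which frees E2F factors to switch on genes of DNA replication, and later the MuvB complex with MYBL2 and FOXM1 switches on genes of mitosis. Roscovitine is known as a purine inhibitor of CDK2, CDK1 and CDK5 and also of CDK7 and CDK9, the kinases that phosphorylate the large subunit of RNA polymerase II and allow it to start and to elongate. In prostate cancer cells the androgen receptor, bound by DHT, adds its own set of targets, such as the kallikreins.

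Among the genes that passed, those lower in late G1 outnumbered those higher. Of 18417 genes tested, 130 passed (0.706%), of which 127 (0.69%) fell and 3 (0.0163%) rose in late G1 relative to the mean of the other arrests (limma, adjusted p under 0.05). At an unadjusted p under 0.05, 1419 genes (7.7%) were lower and 523 (2.84%) were higher. That balance depended on the scaling: it was 1230 lower and 932 higher with quantile normalization and 1312 and 799 with arrays centred on their medians, while the genes that passed numbered 141 lower and 13 higher with quantile normalization. The differences of the 127 lower genes ran from -5.37 to -1.66 with a median of -2.50 on the log2(intensity + 1) scale, while the median of all genes tested was -0.09. For 90 of the 127, every late G1 array lay below all 11 arrays of the other arrests, and for 37 the arrays overlapped. Over all genes, the arrays were separated in that way downwards for 1.28% and upwards for 0.619%. In the plot of difference against level, the genes that fell spread over dim and mid-range levels and the 3 that rose lie near the top.

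**Figure D1:**
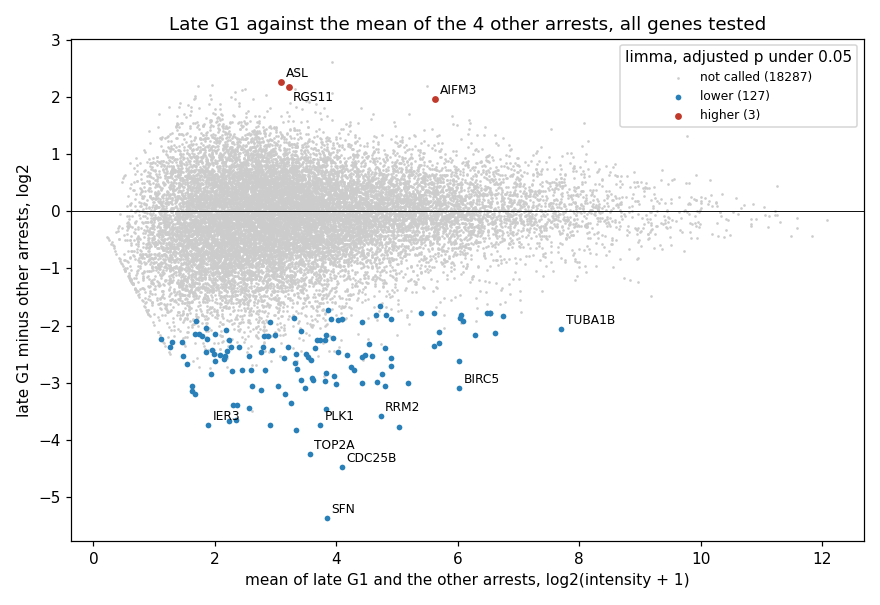
Difference between late G1 and the mean of the 4 other arrests (vertical axis, log2) against their mean level (horizontal axis, log2(intensity + 1)) for the 18417 genes tested, 1 point per gene. Blue points are the 127 genes that fell, red points the 3 that rose and grey points the rest, by limma at an adjusted p under 0.05. The lower side reaches -5.37 (SFN) and the upper side of the called genes 2.27 (ASL).

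The number of calls depended on single arrays. It was 32 lower genes without late G1 replicate 3, 71 without late G1 replicate 1, 75 without late G1 replicate 2, 77 without G2/M replicate 2 and 226 without late S replicate 1. All 127 kept their negative sign in each of these fits, but they were chosen for large falls on the same arrays, so this is no independent evidence. In 20 genes, all of them lower, the call held whichever of the 14 arrays was left out: SFN, CDC25B, PLK1, FOXM1, BIRC5, CDCA3, SPC24, CENPW, PRC1, KIFC1, RRM2, POLR2A, IER3, POC1A, ATF5, RTN1, GJB1, TSPAN1, SAA1 and UCHL1. This set was picked after its values were seen. Between 10.06% and 13.41% of genes had an intensity under 1 on the late G1 arrays, against 3.57% to 15.88% on the other arrest arrays, so the ranges overlapped. For 32 of the 127 lower genes the late G1 level was below an intensity of 1, and the size of such a difference depends on the constant added before the logarithm: with 16 in place of 1 the median of the 127 was -1.11, and 85 of them passed. The heat map describes these genes, which were chosen for the difference it shows. Late S replicate 1 was the lowest array of its group for 99 of the 127, and early G1 replicate 2 for 64.

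**Figure D2:**
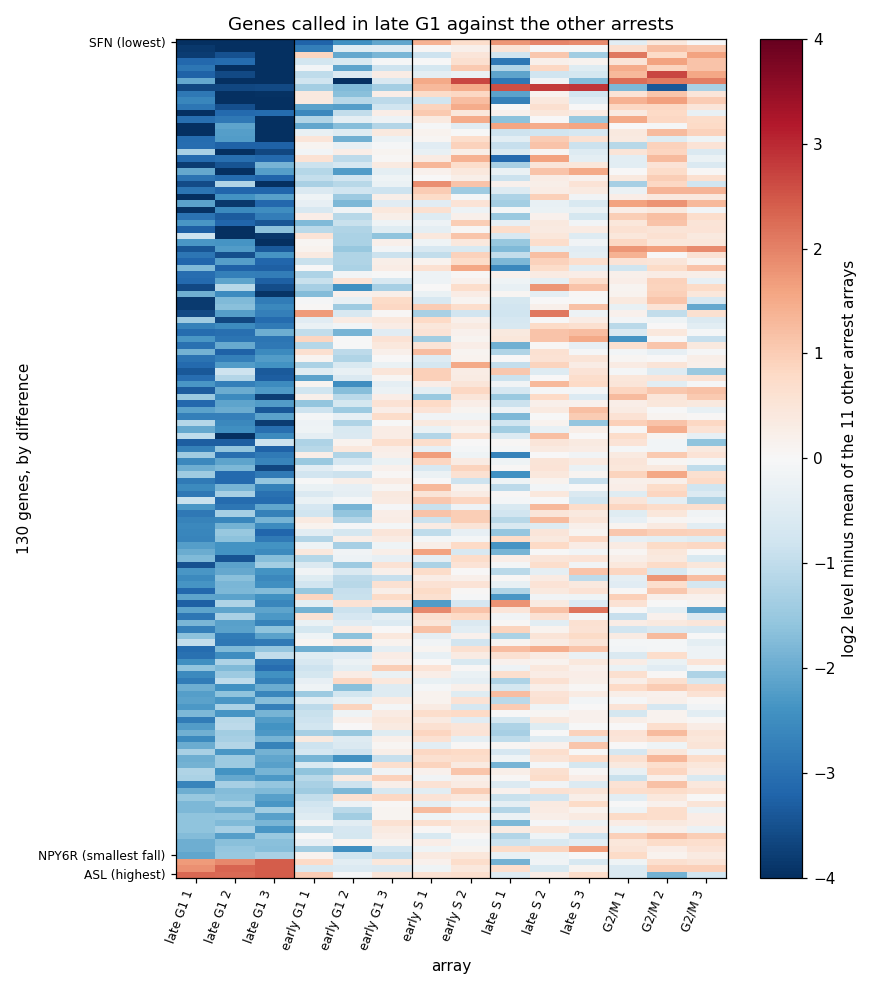
Level of the 130 genes that passed (rows, ordered by difference) on the 14 arrest arrays (columns, late G1 first, black lines between groups), as log2 level minus the gene's mean over the 11 other arrest arrays. Colours stop at -4 and 4, and the late G1 columns are blue for the 127 genes that fell and red for the 3 that rose.

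Genes of mitosis made up the largest named group among those that fell. Of 104 measured genes in 3 lists of mitotic genes, 33 fell (31.7%, against 0.69% of all genes), 71 did not pass and none rose (75 lower and 0 higher at an unadjusted p under 0.05). The median difference over the 104 was -2.06, against -0.09 over all genes, and 98 of the 104 differences were below 0. Medians of lists depend on the added constant too: with 16 in place of 1 this median was -0.86, against -0.04 over all genes, and 34 of the 104 fell. Of 34 regulators of mitotic entry and exit, 11 fell, with a list median of -1.94. Of 35 spindle, kinesin and cytokinesis genes 11 fell, with a median of -2.08, and of 35 kinetochore and condensation genes 11 fell, with a median of -2.13. The mean level of the 104 genes was 2.65 to 2.97 on the late G1 arrays, against 3.56 to 5.36 on the other arrest arrays, with no overlap. The count was 10 without late G1 replicate 3, 20 without late G1 replicate 2, 22 without late G1 replicate 1 and 64 without the 4 arrays that stood apart (late S replicate 1, early G1 replicate 2, CDT replicate 1 and CDT+DHT replicate 3). Those 4 lay at 1 end of the main axis of deviation from group means (scores 0.82, 0.71, 0.73 and 0.45). Arrays at its other end were kept, among them late S replicate 2 (-0.78) and CDT replicate 2 (-0.49). The lists were chosen with earlier results of these data known, so their counts are no independent evidence of their direction.

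Among the regulators of mitotic entry, CDC25B, a phosphatase that activates CDK1, had levels of 2.46, 1.31 and 1.82 on the late G1 arrays, against a lowest of 3.57, a median of 6.38 and a highest of 7.51 on the other arrest arrays. All 3 late G1 arrays were below all others, and the difference was -4.47 ± 0.44 (SE; adjusted p = 3.17e-05) and -2.40 with a constant of 16. PLK1, the kinase that promotes mitotic entry and spindle assembly, stood at 2.40, 2.03 and 1.16 in late G1, against 3.52, 5.24 and 8.30 as the lowest, median and highest of the other arrests. It too was separated on every array, with a difference of -3.74 ± 0.44 (adjusted p = 0.000245). FOXM1, a transcription factor of genes of G2 and mitosis, had late G1 levels of 3.58, 2.72 and 2.49, against 4.14, 5.79 and 7.04 elsewhere, and differed by -3.00 ± 0.42 (adjusted p = 0.00134). CDCA3, which takes part in the turnover of the mitosis inhibitor WEE1, was counted in the kinetochore and condensation list. It was near the bottom of the scale in late G1 at 0.01, 1.79 and 0.01, against 3.16, 3.98 and 5.24 (difference -3.39 ± 0.41, adjusted p = 0.000245). MYBL2, the Myb protein of the MuvB complex, overlapped, with 0.44, 2.81 and 0.00 in late G1 and 2.68 as the lowest of the others. Its difference was -3.06 ± 0.56 (adjusted p = 0.0117), and it did not pass without late G1 replicate 1 (0.0946) or replicate 3 (0.13). CCNB1, the mitotic cyclin, fell by 1.78 ± 0.38 (adjusted p = 0.0323) but lost the call in 6 of the 14 fits with an array left out, among them those without late G1 replicate 2 (0.196) and G2/M replicate 2 (0.0577). CDK1, its kinase partner, did not pass at -2.44 ± 0.64 (adjusted p = 0.0918), nor did CCNA2 at -2.54 ± 0.98 (adjusted p = 0.329). Both passed by limma without the 4 arrays that stood apart (0.0105 and 0.0134), and CDK1 also with array weights (0.0214).

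Among the chromosome and kinetochore genes, BIRC5 (survivin, of the chromosomal passenger complex) was even across the late G1 arrays, at 4.59, 4.47 and 4.36, against a lowest of 6.59, a median of 7.74 and a highest of 8.53 in the other arrests. The gap between the groups was larger than the spread within either, and the difference was -3.09 ± 0.37 (adjusted p = 0.000245). Its signal was well clear of the bottom of the scale, and with a constant of 16 the difference was -2.47 (adjusted p = 8.93e-06). TOP2A, the topoisomerase that untangles sister chromosomes, had 1.90, 2.21 and 0.19 in late G1, against 3.65, 6.18 and 7.79, and SPC24, of the NDC80 complex that binds microtubules at the kinetochore, had 1.45, 2.39 and 2.42, against 2.90, 5.82 and 6.55. Both were separated on all arrays, with differences of -4.24 ± 0.65 (adjusted p = 0.00271) and -3.46 ± 0.52 (adjusted p = 0.00208). TOP2A missed the threshold without late G1 replicate 3 (adjusted p = 0.0504). CENPW, a histone-fold protein of the centromere, differed by -2.62 ± 0.38 (adjusted p = 0.0018). MKI67, the proliferation marker Ki-67, had 1.54, 0.05 and 0.01 in late G1, against a lowest of 1.45 elsewhere, so the groups overlapped by 1 array, and its call (difference -3.65 ± 0.61, adjusted p = 0.00514) was lost without late G1 replicate 3 (0.065).

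Among the motors and spindle proteins, KIF20A, a kinesin of cytokinesis, had late G1 levels of 2.07, 2.16 and 0.06, against 2.37, 5.35 and 6.84 as the lowest, median and highest of the other arrests. NUSAP1, which bundles spindle microtubules, had 4.01, 2.62 and 2.82, against 4.79, 6.81 and 8.38. Neither overlapped, and their differences were -3.83 ± 0.59 (adjusted p = 0.00269) and -3.77 ± 0.62 (adjusted p = 0.00511). PRC1, which bundles microtubules of the midzone, differed by -3.01 ± 0.44 (adjusted p = 0.0018), and the kinesin KIFC1 by -2.98 ± 0.44 (adjusted p = 0.00189). KIF4A, the chromosome-bound kinesin, was at 1.15, 0.01 and 0.05, against 1.87, 4.41 and 5.13, with a difference of -3.67 ± 0.70 (adjusted p = 0.0158). KIF20A and NUSAP1 did not pass without late G1 replicate 3 (0.0504 and 0.0533), nor KIF4A without replicate 2 (0.089) or 3 (0.108). The largest differences in the 3 lists that did not pass were those of PBK (-3.49 ± 0.82, adjusted p = 0.0543) and DLGAP5 (-2.89 ± 0.84, adjusted p = 0.144). PBK passed by limma in several alternatives, among them quantile normalization (adjusted p = 0.0426) and array weights (0.00647). DLGAP5 passed without the 4 arrays that stood apart (0.023).

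**Figure D3:**
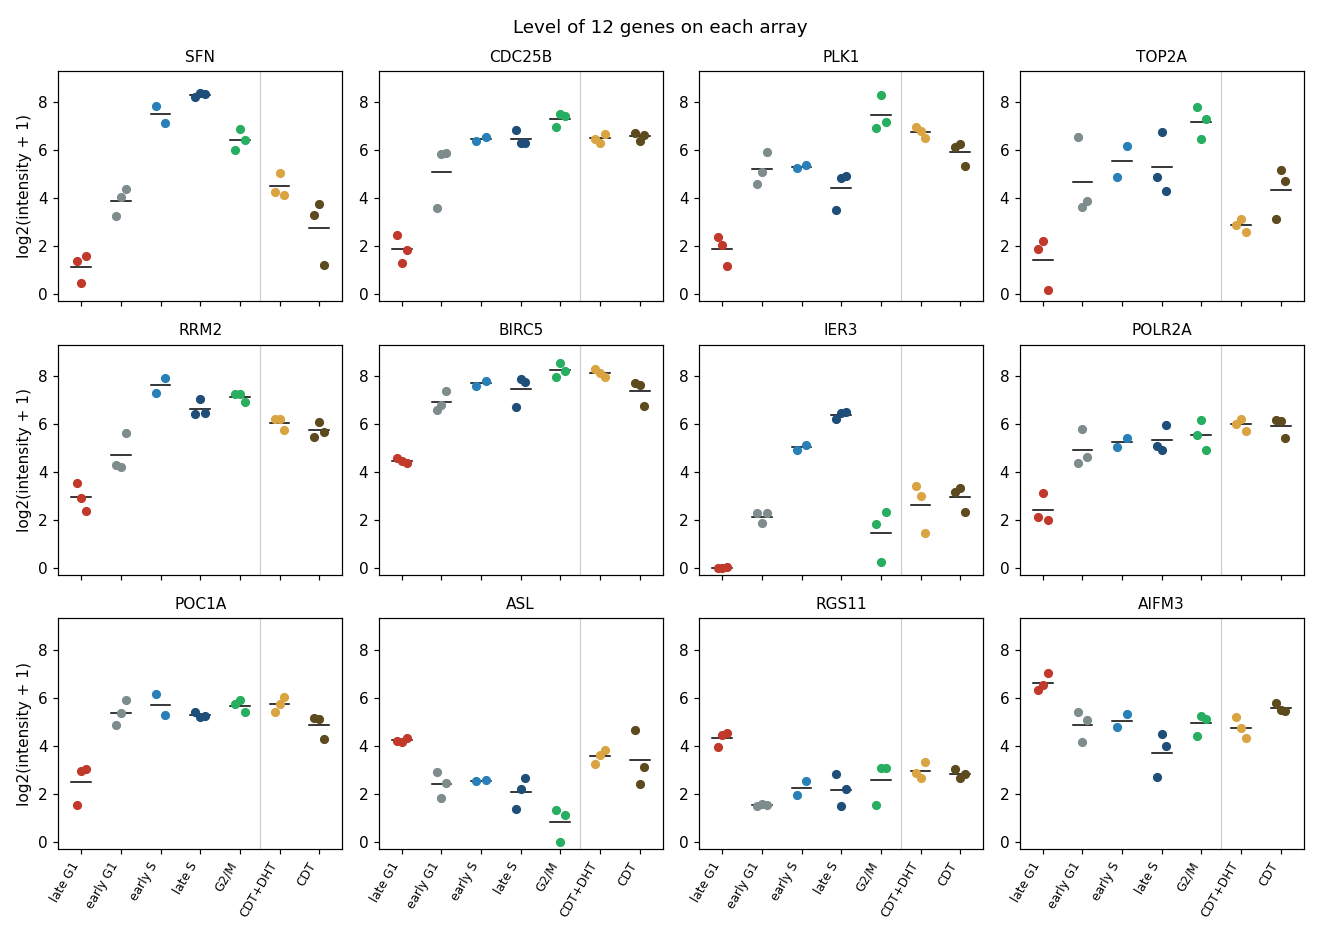
Level of 12 genes (1 panel each, log2(intensity + 1)) on each array of the 7 groups, late G1 at the left and CDT+DHT and CDT at the right of the grey line; points are arrays and bars are group means. SFN to POC1A fell and ASL, RGS11 and AIFM3 rose in late G1; BIRC5 stands at 4.36 to 4.59 in late G1 and at 6.59 or more in the other arrests.

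Many mitotic genes are known to share a promoter element, the cell cycle gene homology region (CHR), with the letters TTTGAA, which the MuvB complex binds, often with CCAAT boxes upstream, which NF-Y binds. RefSeq promoters (GRCh38.p14), each with 250 bases before the start of the gene and 50 after it, were matched for 14237 tested genes, and both motifs were searched on both strands. TTTGAA was in 1696 of them (11.9%) and CCAAT in 5166 (36.3%). Of the 27 mitotic genes that fell and had a promoter, 16 held TTTGAA (59.3%) and 21 held CCAAT (77.8%). Of the mitotic genes that did not pass, 43 of 63 promoters held TTTGAA (68.3%). Outside the mitotic lists, 11 of 78 genes that fell held it (14.1%), and of the replication genes 3 of 46 (6.52%). A match is a description of letters and not of a bound site. The promoters of the 4 mitotic genes with the largest fall among those that hold TTTGAA are shown from 250 bases before the start to 30 after it, to let the placing of the motifs be read. Capitals mark both motifs, read on either strand, and in these 4 promoters no motif overlaps another. TOP2A lies at chr17:40417867-40418146 on the minus strand, with matches that begin 194 and 151 bases before the start. NUSAP1 lies at chr15:41332631-41332910 on the plus strand, with its match at base 14 of the transcript. PLK1 lies at chr16:23678639-23678918 on the plus strand, with its match 29 bases before the start, and KIF4A at chrX:70289854-70290133 on the plus strand, 34 bases before it.
TOP2A: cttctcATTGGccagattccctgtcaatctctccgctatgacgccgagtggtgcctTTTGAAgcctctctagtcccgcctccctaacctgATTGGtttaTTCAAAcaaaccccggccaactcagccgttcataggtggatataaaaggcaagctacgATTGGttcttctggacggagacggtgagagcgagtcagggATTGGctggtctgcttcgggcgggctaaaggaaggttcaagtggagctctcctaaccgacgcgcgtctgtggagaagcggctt
NUSAP1: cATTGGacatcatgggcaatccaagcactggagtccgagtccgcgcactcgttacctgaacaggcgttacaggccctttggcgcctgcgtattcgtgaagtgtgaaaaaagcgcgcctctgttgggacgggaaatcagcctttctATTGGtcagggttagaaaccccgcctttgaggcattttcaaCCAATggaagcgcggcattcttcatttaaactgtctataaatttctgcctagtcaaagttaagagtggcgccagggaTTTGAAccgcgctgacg
PLK1: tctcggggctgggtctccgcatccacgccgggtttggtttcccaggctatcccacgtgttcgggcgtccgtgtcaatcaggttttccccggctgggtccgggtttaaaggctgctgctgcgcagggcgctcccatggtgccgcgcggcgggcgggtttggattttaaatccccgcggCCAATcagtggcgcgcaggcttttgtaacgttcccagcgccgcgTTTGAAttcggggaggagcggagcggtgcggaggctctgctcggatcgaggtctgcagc
KIF4A: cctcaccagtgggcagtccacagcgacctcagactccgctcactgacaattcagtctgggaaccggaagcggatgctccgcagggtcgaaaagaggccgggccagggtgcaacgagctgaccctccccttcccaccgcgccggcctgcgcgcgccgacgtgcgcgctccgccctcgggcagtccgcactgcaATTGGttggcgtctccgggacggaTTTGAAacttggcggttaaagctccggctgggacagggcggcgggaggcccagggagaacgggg

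Taken against each of the other arrests in turn, most calls were made against G2/M and none against early G1. Against G2/M, 31 of the 104 mitotic genes fell (29.8%, against 0.451% of all genes, limma with adjustment over all genes), with a list median of -2.72. Against early S 7 fell (6.73%, against 0.0923% of all), with a median of -1.98, and against late S 7 fell (6.73%, against 0.19% of all), with a median of -1.77. Against early G1 the median was -1.69 and 98 of 104 differences were below 0. In the fit as reported, no mitotic gene and no gene of any kind passed against early G1 (54 of the 104 mitotic genes were lower at an unadjusted p under 0.05, as were 899 of all genes). The genes that rose numbered 6 against G2/M (0.0326%), 1 against early S (0.00543%) and 1 against late S (0.00543%). These 4 comparisons share the late G1 arrays. PLK1 shows the pattern: its mean level was 1.87 in late G1, against 7.47 in G2/M, 5.31 in early S, 5.20 in early G1 and 4.43 in late S, and the difference was -5.60 from G2/M (adjusted p = 4.92e-05) and -3.33 from early G1 (adjusted p = 0.0641). CDC25B passed against early S, late S and G2/M (-4.59, -4.62 and -5.43) and had -3.23 against early G1 (adjusted p = 0.0641). No gene was lower, and none higher, than each of the 4 other arrests at an adjusted p under 0.05 by limma in the fit as reported. At an unadjusted p under 0.05, 242 (1.31%) were lower and 19 (0.103%) higher than each. With quantile normalization, BIRC5, CDC25B, CDCA3, GJB1, PLK1 and POC1A passed as lower than each of the 4, early G1 included. For all 127 genes that fell, the late G1 mean lay below each of the 4 other means. They were chosen for their difference from the mean of those same groups, and the count was not made over all genes. Early G1 was the lowest of the other arrests for 68 of them, late S for 32, G2/M for 14 and early S for 13.

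Genes of DNA replication had a smaller median difference. Of 52 measured genes of replication and the G1/S transition 8 fell (15.4%, against 0.69% of all genes), none rose (26 lower and 1 higher at an unadjusted p under 0.05), and the list median was -1.19 (-0.67 with a constant of 16), with 46 of 52 differences below 0. The 8 were RRM2, CDC45, LIG1, POLE, GINS1, POLA2, TYMS and MCM2. RRM2, the small subunit of ribonucleotide reductase, had late G1 levels of 3.52, 2.91 and 2.38, against a lowest of 4.20, a median of 6.90 and a highest of 7.91 in the other arrests. All late G1 arrays were below all others, with a difference of -3.58 ± 0.39 (adjusted p = 0.000111). Its early G1 mean, 4.69, was the nearest to late G1, with a pairwise difference of -1.75 that did not pass (adjusted p = 0.351), while it passed against early S (-4.67), late S (-3.69) and G2/M (-4.20). CDC45, which loads with MCM and GINS as the replicative helicase, differed by -2.88 ± 0.50 (adjusted p = 0.00715), and LIG1, the ligase that joins Okazaki fragments, by -2.49 ± 0.43 (adjusted p = 0.00725). POLE, the catalytic subunit of the leading-strand polymerase, differed by -2.44 ± 0.48 (adjusted p = 0.0179), and by -0.63 (adjusted p = 0.0909) with a constant of 16. PCNA, the sliding clamp, lay just outside the threshold: its late G1 levels of 5.62, 5.12 and 5.66 were below the lowest of the others, 5.75, and the difference was -1.69 ± 0.39 (adjusted p = 0.0512). PCNA passed by limma in several alternatives, among them a constant of 16 (-1.42, adjusted p = 0.00708) and quantile normalization (-1.6, 0.0324). E2F1 did not pass at -1.78 ± 0.47 (adjusted p = 0.0923), but did by limma with array weights (0.0191) and without the 4 arrays that stood apart (0.0411). The E-type cyclins, partners of CDK2, had -0.53 ± 0.48 for CCNE1 (adjusted p = 0.778) and -0.38 ± 0.55 for CCNE2 (adjusted p = 0.885). The list count rested on few arrays: 1 gene fell without late G1 replicate 3, 2 without late G1 replicate 1, 5 without late G1 replicate 2, 13 without late S replicate 1 and 21 without the 4 arrays that stood apart, and of the genes with values here RRM2 alone passed in every fit. CDC45 and LIG1 missed without late G1 replicate 1 (0.0534 and 0.0518) and without replicate 3 (0.0737 each), and POLE without either (0.0961 and 0.128).

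Replication-dependent histones, which package newly made DNA, and tubulins, the subunits of microtubules, had smaller medians again. Of 51 histone genes 4 fell (H2AC11, H2AC21, H2BC5 and H1-2; 7.84%, against 0.69% of all genes), none rose (1 at an unadjusted p under 0.05), and the median was -1.13 (-0.59 with a constant of 16). H2AC11, whose arrays overlapped, passed narrowly (adjusted p = 0.0479), and lost its call without each late G1 array in turn (0.0534, 0.246 and 0.234) and in many other fits. H1-2, a linker histone, had 5.46, 5.75 and 5.74 in late G1, against 6.56, 7.53 and 8.14 as the lowest, median and highest of the other arrests, a difference of -1.78 ± 0.33 (adjusted p = 0.0118) with no overlap. Without late G1 replicate 1 or replicate 3 no histone passed (21 and 22 at an unadjusted p under 0.05), 1 did without late G1 replicate 2, and 11 did without late S replicate 1. Of 18 tubulins 3 fell (TUBA3C, TUBB1 and TUBA1B; 16.7%), with a list median of -0.87 (-0.55 with a constant of 16). TUBA1B, an abundant alpha tubulin, had 6.88, 6.31 and 6.81, against 7.77, 8.74 and 9.45, with no overlap and a difference of -2.06 ± 0.39 (adjusted p = 0.0134). Its call was lost without late G1 replicate 2 (0.0999) and replicate 3 (0.0737), where 1 and 0 tubulins passed (8 and 7 lower at an unadjusted p under 0.05), and 5 passed without the 4 arrays that stood apart. The median of the tubulins was -0.25 against G2/M, the arrest made with a drug that acts on tubulin, and -0.99, -1.24 and -1.13 against early G1, early S and late S. Histone and tubulin genes have near-identical copies that share probes, so single members are uncertain.

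The large subunit of RNA polymerase II fell while the other subunits did not pass. POLR2A, the catalytic subunit whose tail the transcriptional CDKs phosphorylate, had late G1 levels of 2.14, 3.14 and 1.99, against a lowest of 4.36, a median of 5.09 and a highest of 6.17 in the other arrests. Every late G1 array was below every other arrest array, and the difference was -2.83 ± 0.42 (adjusted p = 0.00208), or -1.38 with a constant of 16 (adjusted p = 0.00422). The other arrests lay close together, with mean levels of 5.54 (G2/M), 5.31 (late S), 5.23 (early S) and 4.92 (early G1), and the CDT+DHT and CDT means were 5.97 and 5.89. The pairwise differences were -2.49 (adjusted p = 0.146), -2.81 (0.0886), -2.89 (0.0199) and -3.12 (0.00703) against early G1, early S, late S and G2/M. The other 11 subunits ranged from -0.65 to 0.97, none passed (nor at an unadjusted p under 0.05), and the median of the 12 was 0.25. Whether POLR2A differed from the other subunits was not tested. Of 29 transcriptional CDKs, cyclins and elongation factors, 1 fell (3.45%, against 0.69% of all genes) and the median was -0.30. That was HEXIM1, which holds CDK9 and cyclin T inactive with 7SK RNA. Its late G1 levels were 4.74, 1.70 and 3.20, against 4.59, 5.78 and 6.95, so that it overlapped, and its difference of -2.51 ± 0.56 (adjusted p = 0.0413) lost the call without late G1 replicate 2 (0.31), late G1 replicate 3 (0.174) and in several other fits without 1 array. The drug's known targets CDK7 and CDK9 had 0.66 ± 0.54 (adjusted p = 0.744) and -0.25 ± 0.36 (adjusted p = 0.884).

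Of 41 immediate early and short-lived transcripts, 1 fell (IER3; 2.44%, against 0.69% of all genes) and none rose. At an unadjusted p under 0.05, 6 of the 41 were lower and 0 higher, while of all genes 7.7% were lower and 2.84% higher. The list median was -0.11, beside -0.09 for all genes. IER3, an immediate early gene with a role in cell survival, was at the bottom of the scale in late G1 (0.00, 0.01 and 0.04), against 0.24, 2.35 and 6.49 as the lowest, median and highest of the other arrests. The difference was -3.74 ± 0.46 (adjusted p = 0.000295), or -1.16 with a constant of 16. The other arrests differed widely: the mean was 6.38 in late S, 5.03 in early S, 2.14 in early G1 and 1.48 in G2/M, and the pairwise calls were against early S and late S (adjusted p = 0.00128 and 7.4e-06), not against early G1 (0.338) or G2/M (0.398). MCL1, an anti-apoptotic protein with a short-lived transcript, had 6.73, 5.89 and 6.08 in late G1, against 4.38, 6.26 and 6.52, with a difference of 0.36 ± 0.54 (adjusted p = 0.894), and MYC had 0.20 ± 0.37 (adjusted p = 0.917). FOS had -0.55 ± 0.49 (adjusted p = 0.776).

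The largest difference of all belonged to SFN (14-3-3 sigma), an epithelial protein that holds CDK1 and cyclin B in the cytoplasm after DNA damage. Its late G1 levels were 1.39, 0.46 and 1.61, against a lowest of 3.25, a median of 6.87 and a highest of 8.39 elsewhere. The difference was -5.37 ± 0.48 (adjusted p = 1.16e-05), and -2.77 with a constant of 16. Its mean was 8.30 in late S and 7.48 in early S, the replication blocks, 6.44 in G2/M and 3.88 in early G1, and the pairwise difference passed for late S (-7.15), early S (-6.32) and G2/M (-5.28) but not for early G1 (-2.73, adjusted p = 0.199). The CDT+DHT and CDT means, 4.49 and 2.75, were also below those of S and G2/M. SAA1, an acute phase protein, was also highest in late S and lowest in late G1, at 0.01, 1.97 and 0.01 in late G1 and with means of 5.63 in late S, 4.34 in G2/M, 3.83 in early S and 2.43 in early G1 (difference -3.39 ± 0.52, adjusted p = 0.00269). SAA2, its near-identical neighbour, was at 0.00 on all 3 late G1 arrays (difference -2.24 ± 0.48, adjusted p = 0.0323), and the probes may not separate the pair; its call was lost in 5 of the 14 fits without 1 array, the 3 without a late G1 array included. SAA1 and SAA2 were named after their values were seen.

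In the plot of the spread among the other arrests, SFN, IER3 and SAA1 lie at the wide end. For 43 of the 127 genes that fell, the 4 other means lay within 1 log2 unit of each other, and for 22 they spread by over 2. Of the 43, 6 were in the mitotic, replication, histone or tubulin lists (NCAPH, SPC25, TUBA3C, CENPW, POLA2 and MCM2), while of all 127 it was 48. POLR2A is in the narrow set. POC1A, a centriolar protein, had 1.52, 2.94 and 3.01 in late G1, against 4.86, 5.39 and 6.13, and its other means were 5.70 in early S, 5.67 in G2/M, 5.37 in early G1 and 5.28 in late S (difference -3.02 ± 0.40, adjusted p = 0.000751). ATF5, a stress-responsive transcription factor, had 3.14, 3.45 and 3.42, against 4.95, 6.34 and 6.50 (-2.84 ± 0.38, adjusted p = 0.000885). GJB1, the gap junction protein connexin 32, had 2.85, 3.05 and 2.73, against 4.47, 5.57 and 6.34 (-2.72 ± 0.39, adjusted p = 0.0018). None of these 3 overlapped, and each passed in every fit without 1 array. CFLAR, the c-FLIP inhibitor of caspase-8 activation, had 0.04, 2.16 and 2.36, against 3.08, 4.78 and 5.49 (-3.05 ± 0.57, adjusted p = 0.0129). It was the only 1 of 24 NF-kB and inflammatory genes to fall (4.17%, against 0.69% of all genes). CFLAR did not pass without late G1 replicate 1 (0.131) or with the mean of its probe sets (-1.62, adjusted p = 0.109). STIL, which acts in centriole duplication, was close to 0 on all late G1 arrays (0.20, 0.03 and 0.01), against 2.15, 3.19 and 4.40, and lost its call (-3.19 ± 0.59, adjusted p = 0.0116) when any 1 late G1 array was left out. POC1A, ATF5, GJB1 and STIL were named after their values were seen.

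**Figure D4:**
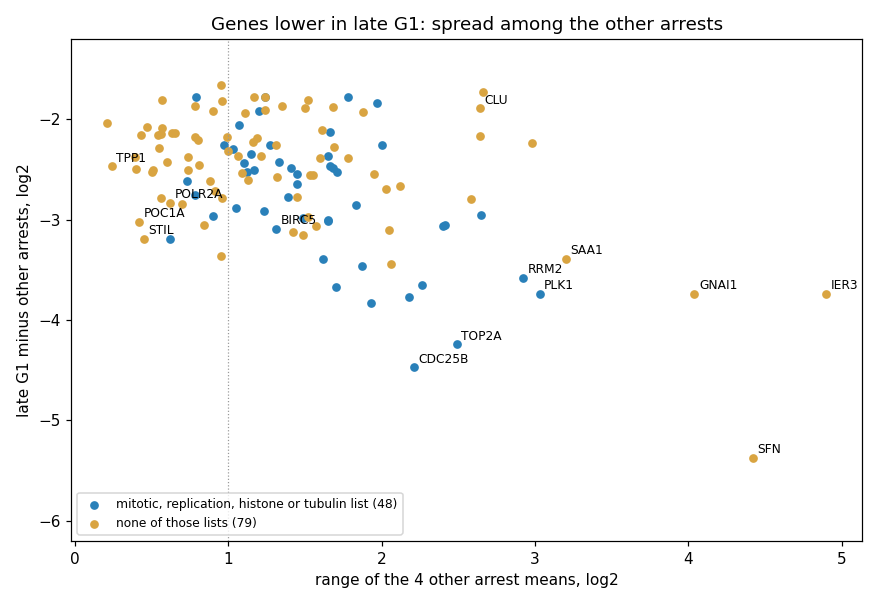
Difference between late G1 and the mean of the other arrests (vertical axis, log2) against the range of the 4 other arrest means (horizontal axis, log2) for the 127 genes that fell. Blue points are the 48 genes of the mitotic, replication, histone or tubulin lists and yellow points the other 79; the dotted line is at 1, to the left of which lie 43 genes.

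The 3 genes that rose had little in common. ASL, the argininosuccinate lyase of the urea cycle and of arginine synthesis, had 4.21, 4.17 and 4.31 in late G1, against a lowest of 0.01, a median of 2.20 and a highest of 2.90 elsewhere, a difference of 2.27 ± 0.45 (adjusted p = 0.0199). RGS11, a GTPase-activating protein for G protein alpha subunits, had 3.95, 4.44 and 4.52, against 1.49, 1.95 and 3.06, a difference of 2.18 ± 0.40 (adjusted p = 0.0116). AIFM3, a relative of apoptosis-inducing factor, had 6.30, 6.51 and 7.01, against 2.70, 4.79 and 5.39, a difference of 1.97 ± 0.42 (adjusted p = 0.0308). All 3 late G1 arrays were above all other arrest arrays for each, but none of these calls stood in every fit: without late G1 replicate 3 the adjusted p was 0.116 for ASL, 0.0944 for RGS11 and 0.195 for AIFM3, and without late G1 replicate 2 it was 0.0821, 0.0668 and 0.112. Without late G1 replicate 1, ASL (0.0845) and AIFM3 (0.0782) missed too, and AIFM3 also without early S replicate 1 (0.0583). In CDT+DHT and CDT the mean level of ASL was 3.55 and 3.39, nearer to late G1 than to the other arrests.

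Against the mean of the other arrests, few members of the androgen lists and none of the p53 or stress lists passed. SFN and ATF5, which passed, were in none of these lists, so the counts hold for the listed genes only. Of 31 androgen-induced genes 1 fell (3.23%, against 0.69% of all genes), HOMER2, a scaffold protein. At an unadjusted p under 0.05, 10 were lower and 0 higher, while of all genes 7.7% were lower and 2.84% higher. The list median was -0.52 (-0.31 with a constant of 16), and 24 of 31 differences were below 0. The count depended on single arrays and on their weight: 7 fell without the 4 arrays that stood apart, 6 with array weights, 3 without early G1 replicate 2 or without late S replicate 1, and 0 without each late G1 array in turn (9 lower at an unadjusted p under 0.05 each time). MAF and EAF2, with the largest differences of the list, did not pass (-2.23 ± 0.77, adjusted p = 0.259, and -2.13 ± 0.62, adjusted p = 0.144). Both passed by limma with array weights (0.0318 and 0.0313). HOMER2 had 4.85, 4.68 and 4.63 in late G1, against 4.65, 6.74 and 7.10, so that the groups overlapped, and its difference of -1.78 ± 0.39 (adjusted p = 0.0364) lost the call without each of the 3 late G1 arrays in turn (0.119, 0.15 and 0.174). The kallikreins, secreted proteases under direct androgen control, did not pass: KLK3 (prostate-specific antigen) had 9.34, 9.41 and 9.47, against 8.98, 9.63 and 10.85, a difference of -0.10 ± 0.40 (adjusted p = 0.967), and KLK2 had -0.11 ± 0.33 (adjusted p = 0.954). Of the 8 measured androgen-repressed genes none passed (1 at an unadjusted p under 0.05), and the median was -0.01. Of 28 p53 targets none passed, while 11 were lower and 2 higher at an unadjusted p under 0.05. Of all genes, 7.7% were lower and 2.84% higher at that threshold. In the p53 list 23 differences were below 0 and the median was -0.82. With a constant of 16 the median was -0.34 and 2 passed. With the constant of 1, the median was 0.08 against early G1, and -0.89, -1.12 and -0.82 against early S, late S and G2/M. Against late S, 1 member of the p53 list passed as lower by limma (DDB2; 3.57%, against 0.19% of all genes). CDKN1A, the CDK inhibitor p21, had 6.15, 5.66 and 6.15 in late G1, against 4.26, 8.13 and 9.28, with means of 8.85 in late S, 8.49 in early S, 7.73 in G2/M and 5.21 in early G1, so that it lay between early G1 and the rest. Its difference of -1.58 ± 0.47 did not pass (adjusted p = 0.158), but passed with a constant of 16 (-1.46, adjusted p = 0.0167). The medians were -0.11 over 24 genes of the unfolded protein and amino acid response, -0.21 over 18 sterol genes, -0.08 over 15 heat shock chaperones, -0.24 over 16 members of the BCL2 family and -0.05 over 7 CDK inhibitors, with none past the threshold by limma. In that order, 0, 5, 2, 3 and 2 were lower and 3, 0, 0, 1 and 0 higher at an unadjusted p under 0.05. These counts stand beside 7.7% lower and 2.84% higher over all genes. ASNS, the asparagine synthetase induced by amino acid shortage, was above all 11 other arrest arrays at 7.74, 7.57 and 8.21 in late G1, against 5.74, 6.93 and 7.49, but did not pass (1.06 ± 0.44, adjusted p = 0.388). SLC7A11, the cystine transporter of the same list, had 1.43 ± 0.59 (adjusted p = 0.385). BAX, a pro-apoptotic p53 target, had -1.97 ± 0.61 (adjusted p = 0.179), and passed by limma with array weights (0.028). Late G1 lay below all 11 other arrest arrays for CDKN3, a phosphatase that acts on CDKs (-2.32 ± 0.55, adjusted p = 0.0598), INSIG1, which restrains sterol synthesis (-1.54 ± 0.46, adjusted p = 0.16), and BCL2L1, an anti-apoptotic protein (-1.45 ± 0.45, adjusted p = 0.175), none of which passed. CDKN3 passed by limma in several alternatives, among them quantile normalization (0.0328) and a constant of 16 (0.0479). INSIG1 passed without the 4 arrays that stood apart (0.0362) and BCL2L1 with array weights (0.0463). The plot of all lists sets these medians beside those of the mitotic lists.

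**Figure D5:**
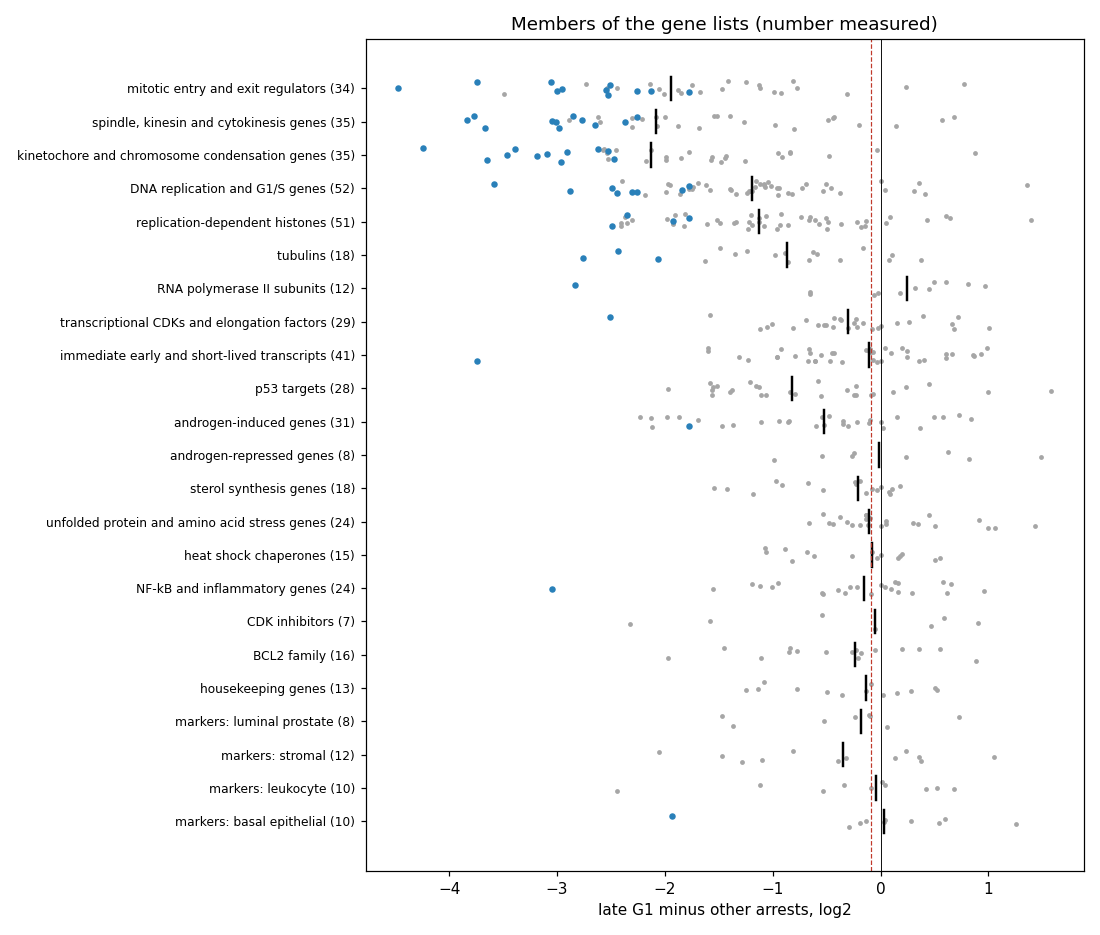
Difference between late G1 and the mean of the other arrests (horizontal axis, log2) for the measured members of 23 gene lists (1 line each, number measured in brackets, vertical scatter without meaning). Blue points passed, grey points did not, black bars are list medians and the red dashed line is the median of all genes, -0.09; the 3 mitotic lists have medians of -1.94, -2.08 and -2.13.

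Most genes that fell in late G1 also stood below the groups that had no arresting drug, though no test was made of this. For all 127 the late G1 mean lay below the CDT+DHT mean, and for 104 every late G1 array was below every CDT+DHT array. Against CDT it was 126 and 101. The 127 genes were chosen for low levels on these same late G1 arrays, and the counts were not made over all genes. The CDT+DHT and CDT groups also differed from the arrests in their medium. The mean level of the 104 mitotic genes, 2.65 to 2.97 on the late G1 arrays, was 3.28 to 4.08 on the CDT+DHT arrays and 3.49 to 4.54 on the CDT arrays. Mean levels of the marker lists overlapped between late G1 and the other arrests. The mean level of 8 measured luminal prostate markers was 5.73 to 5.80, against 4.97 to 6.86 in the other arrests, and SLC45A3 (prostein), at 2.66, 2.27 and 2.82, lay below the lowest of the others, 3.19, with a difference of -1.37 ± 0.40 (adjusted p = 0.144). TRPM8, an ion channel of the same list, had -1.47 ± 0.62 (adjusted p = 0.396). The luminal keratin KRT8 stood at 5.52 to 5.69, against 5.52 to 6.64 (-0.52 ± 0.36, adjusted p = 0.687), and KRT18 at 5.34 to 6.08, against 4.63 to 6.97 (-0.24 ± 0.46, adjusted p = 0.919). Leukocyte markers (10 genes) averaged 2.25 to 2.53, against 1.96 to 3.37, stromal markers (12) 2.94 to 3.15, against 3.09 to 3.83, and basal markers (10) 3.24 to 3.31, against 2.96 to 3.58. FN1 (fibronectin), of the stromal list, had 6.15, 4.32 and 3.78, against 4.96, 6.96 and 8.43 as the lowest, median and highest of the others. It just missed the threshold (-2.05 ± 0.49, adjusted p = 0.0603) and passed in several alternatives, among them a constant of 16 (-1.56, adjusted p = 0.027). CD68, of the leukocyte list, had 2.53, 1.45 and 2.58, against 1.87, 5.04 and 6.27 (-2.44 ± 0.64, adjusted p = 0.0918), and passed with array weights (0.0105) and without the 4 arrays that stood apart (0.00636). No marker rose and 1 fell, S100A2 of the basal list (-1.93 ± 0.45, adjusted p = 0.0498), which lost its call without each of the late G1 arrays in turn (0.177, 0.097 and 0.254) and in most other fits. Of the housekeeping genes, 13 were measured, none passed and the median was -0.13. At an unadjusted p under 0.05, 4 of them were lower, while of all genes 7.7% were. ACTB had -1.14 ± 0.40 (adjusted p = 0.262) and GAPDH -0.77 ± 0.35 (adjusted p = 0.441). The part of these levels in the results was not tested.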

How the data were processed

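Expression was measured on 20 Affymetrix human gene arrays, from Trizol RNA that was amplified with a NuGEN kit (Ovation Pico WTA V2) and biotin-labelled, per the labels' protocols. The deposited values were linear probe set intensities. The submitters' processing notes name Affymetrix Expression Console 1.1. How probes were summarised and whether arrays were normalized to each other is not given in the sources used here. Array median intensities ran from 5.44 to 9.08, and 0 values were at or below 0. The number of arrays limits the precision, and no detection calls were used.

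Of 33297 features, 19460 had 1 gene symbol in the platform's annotation, 1754 had several and 12083 were not listed. Only those with 1 symbol were used, and 769 genes with several such features were represented by the brightest on average, which gave 18417 genes. Current names came from RefSeq for GRCh38.p14 (19429 features matched by Entrez ID). TMPRSS2, FKBP5 and some other list members had no such feature and were not tested here. Values were taken as log2(intensity + 1) and fitted in R 4.3.3 with limma 3.58.1 (1 linear model of 7 group means over 20 arrays). P-values were adjusted by Benjamini and Hochberg's method over the 18417 genes, an adjusted p under 0.05 passed, and the fit was tested on simulated data. Errors are standard errors of the fit. Whether replicates came from separate cultures is not in the labels, so the p-values reflect the spread between arrays alone.

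The members and the gene lists were chosen with earlier results of these data known. Genes that could be named were the 10 largest differences per direction that passed with arrays that did not overlap, the 4 largest that passed and 2 largest that did not in each list, or in a fixed set of cell cycle, androgen and transcription genes; not every such gene is described. Names outside that rule, KRT8, KRT18 and GAPDH among them, were chosen after their values were seen. Arrays of different groups with the same replicate number did not deviate together (26 pairs over 6139 genes, median correlation 0.002, range -0.715 to 0.585), so the numbers were not taken as pairs. Alternatives were another constant, quantile normalization, centring, leaving out dim genes, averaged probe sets, all features, eBayes with trend and robust, array weights, a replicate block, the arrest arrays alone, other weightings of the other arrests, and leaving out arrays.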

Additional observations from a re-analysis of the deposited data

How the results depend on the processing

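The genes lower in late G1 numbered 127 in the analysis as reported, and the genes higher 3. Array weights gave 352 lower and 25 higher. Leaving out the 4 arrays that stood apart, all at 1 end of the axis of deviation, gave 388 and 18. With only the 14 arrest arrays in the fit 78 were lower. The higher genes numbered 11 with arrays centred on their medians, 6 with trend and robust eBayes and 7 with the filter on dim genes. They numbered 15 with a constant of 16 and 13 with quantile normalization. With every feature tested, 18 of 33297 features were higher, but of the 18417 genes still 3. Without 1 array at a time, 32 to 226 were lower and 1 to 5 higher. Genes lower than each of the 4 other arrests numbered 0 as reported, 12 with array weights, 5 with centring, 15 with trend and robust eBayes, 6 with the filter on dim genes, 4 with a constant of 16, 6 with quantile normalization, 2 without the 4 arrays, and 0 to 6 without 1 array. Genes higher than each numbered 0, 1 with trend and robust eBayes, and 0 without any 1 array. Quantile normalization moved the median of all genes from -0.086 to 0.045.

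The replicate number as a block gave 87 lower genes, all among the 127, and 2 higher ones; in a fit with the block AIFM3 (adjusted p = 0.0587), CCNB1 (0.0564), H2AC11 (0.0838), HEXIM1 (0.0791), HOMER2 (0.0606) and S100A2 (0.0788) did not pass. Of the 14 arrest arrays, 3 correlated best with an array of their own number.

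Signs were compared for the genes that could be named by the rule above, not for all genes. Among them the sign turned for 3, which did not pass in any case. MCM5 went from 0.31 to -0.03 without early S among the other arrests, and KLK3 from -0.10 to 0.05 with quantile normalization. CCND1 went from 0.11 to -0.05 with array weights and to -0.09 without the 4 arrays. Without 1 array CCND1 ran from -0.2 to 0.36. It had -0.12 without early S replicate 1, -0.2 without late G1 replicate 1 and -0.09 without late S replicate 1. Of the 20 genes that passed without any 1 array, 19 also passed in the 13 other alternatives, and UCHL1 did not with a constant of 16 (adjusted p = 0.133). The cause of these changes was not tested.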
